A study of Mus musculus with 6 samples.

Results

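Secretoglobins are small proteins that airway secretory cells release into the lining fluid. *Scgb1a1* encodes club cell secretory protein (uteroglobin), the classical marker of club cells. *Scgb3a2* encodes a related secretory protein of airway epithelium that depends on the transcription factor Nkx2-1 in lung development, and *Scgb3a1* encodes the other member of the same branch of the family. Club cells are secretory progenitors that can give rise to multiciliated cells, so the family is used to tell secretory from other epithelial cells. The 3 genes *Scgb1a1*, *Scgb3a1* and *Scgb3a2* were selected by their symbols among 20483 genes of a single-cell RNA table. No cutoff on their values was used, but earlier results of these data were known. Genes whose symbol begins with Scgb numbered 5 in the table. Of the other 2, *Scgb2b27* had 3 molecules in all and *Scgb1c1* had 483 molecules in 399 cells, with 1.85 ± 0.495 CPM (molecules counted, scaled to a total of 1000000) in Secretory1.

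The cells were primary tracheal epithelial cells of C57BL/6 mice of 12 weeks of age, differentiated and kept at air-liquid interface (ALI), a culture in which the upper surface is exposed to air. One group was 3 *WT/WT* mice (WT1, WT2 and WT3), and the other was 3 mice that the labels call DNAAF5 mutant and the study calls *MIS/MIS* (MT1301, MT1306 and MT1383). Both alleles of *MIS/MIS* mice carry a missense change of *Dnaaf5*, which encodes a cytoplasmic assembly factor of the dynein motors of cilia, in every cell of the animal. Each mouse gave 1 culture library, so p-values measure the spread between these libraries. The design asks whether the secretory program differs between the genotypes, and the annotated clusters allow the 3 genes to be followed across cell types.

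Promoters are shown for genes whose levels varied together across the cells of Secretory1, the main secretory cluster. The RefSeq promoter table used here held an entry for *Scgb3a1* among the 3 genes. The 250 bases upstream of its RefSeq start (GRCm38.p6, chr11:49663345-49663594, plus strand) are printed with those of *Bpifa1* (chr2:154142630-154142879, plus strand), an antimicrobial lining-fluid protein, and *Reg3g* (chr6:78468875-78469124, minus strand), an antibacterial lectin. Capitals mark matches on either strand to the core CAAG bound by Nkx2-1, to TGTTTNC bound by FOXA factors, and to TTNNGNAA bound by C/EBP factors.
Scgb3a1: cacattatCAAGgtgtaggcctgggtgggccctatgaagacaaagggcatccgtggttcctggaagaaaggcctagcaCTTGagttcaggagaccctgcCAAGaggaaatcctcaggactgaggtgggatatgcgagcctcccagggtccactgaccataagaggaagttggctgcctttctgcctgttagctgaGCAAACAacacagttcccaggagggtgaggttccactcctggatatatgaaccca
Bpifa1: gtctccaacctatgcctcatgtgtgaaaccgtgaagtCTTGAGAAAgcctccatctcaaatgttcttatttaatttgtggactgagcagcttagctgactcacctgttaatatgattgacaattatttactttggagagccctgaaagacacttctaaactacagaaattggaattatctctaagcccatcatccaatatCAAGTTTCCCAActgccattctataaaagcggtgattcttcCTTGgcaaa
Reg3g: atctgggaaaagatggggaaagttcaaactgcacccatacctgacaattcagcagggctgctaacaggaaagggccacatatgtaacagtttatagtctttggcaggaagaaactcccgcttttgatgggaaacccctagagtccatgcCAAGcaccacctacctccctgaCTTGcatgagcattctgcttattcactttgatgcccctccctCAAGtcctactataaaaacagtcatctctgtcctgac
The core CAAG was found 3 times in each of the 3 promoters, and it is present in 86.6% of 32851 mouse promoters of the same length. The FOXA motif was found once, on the minus strand 55 bases before the start of *Scgb3a1*, and is present in 17.8% of promoters. The C/EBP motif was found at 212 and 46 bases before the start of *Bpifa1*, where the former overlaps a CAAG match, and is present in 36.8% of promoters. A match is a description of these letters and not a binding site.

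The table held 23871 cells in 16 clusters named by the authors, with 2673 to 6710 cells and 100961835 to 153326568 unique molecular identifiers (UMIs, 1 per captured transcript molecule) per mouse. *MIS/MIS* mouse MT1383 had the most cells and the lowest depth, with a median of 21327.5 UMIs per cell against 27481 to 35383 in the other mice. In all, 67 cell barcodes occurred in more than 1 mouse, and the most that any pair of mice shared was 12. The study's methods treated cells with over 7500 genes as possible doublets and removed them, yet 655 deposited cells exceeded this limit. No doublet caller was run here. The missense change leaves a transcript, so the level of *Dnaaf5* (log2 difference 0.16 in secretory cells and 0.28 in multiciliated cells) does not check the genotype labels.

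In the GENCODE M21 annotation of GRCm38, *Scgb1a1* (ENSMUSG00000024653.2) lies on the minus strand at chr19:9083636-9087958 with 1 transcript of 3 exons. *Scgb3a1* (ENSMUSG00000064057.12) lies on the plus strand at chr11:49663610-49665118 with 2 transcripts of 3 to 4 exons. *Scgb3a2* (ENSMUSG00000038791.14) lies on the plus strand at chr18:43764289-43767399 with 3 transcripts of 2 to 3 exons. No stretch of 50 bases of any of their transcripts occurs in a transcript of another gene, so their counts do not share reads of that length with a near-identical copy. The 3 genes are on different chromosomes.

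*Scgb3a2* was by far the most abundant of the 3 genes. Over all cells it had 2946335 UMIs, *Scgb1a1* had 169048 and *Scgb3a1* had 111602, which makes 91.3%, 5.24% and 3.46% of their sum. The assay counts transcript ends, so UMIs are not proportional to transcript length. Divided by the longest annotated transcript length, the shares were 86.6%, 8.79% and 4.62%, and divided by the shortest they were 90.2%, 5.98% and 3.81%. *Scgb3a2* thus led on either scale. In Secretory1 the 3 genes together took 1.51% of all UMIs (lowest mouse 0.929%, highest 2.47%), against 0.330% in Secretory2, 0.0872% in basal cells and 0.0604% in multiciliated cells.

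All 3 genes had their highest mean level in Secretory1, one of the 2 clusters the authors named secretory. The clusters were made from all genes of these cells, so levels between clusters are a description with no test. Secretory1 held 4861 cells and Secretory2 held 2870. Over the 6 mice, Secretory1 contained 77.8% ± 3.65 (SD) of the *Scgb3a2* UMIs, 72.0% ± 7.82 of those of *Scgb1a1* and 89.9% ± 3.03 of those of *Scgb3a1*, while being 19.3% ± 5.14 of the cells. Secretory2, at 12.7% of the cells, held 16.9% of the *Scgb1a1* UMIs and 2.72% of those of *Scgb3a1*. *Scgb3a1* was thus more restricted to Secretory1 than the other 2 genes in these means.

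**Figure D1:**
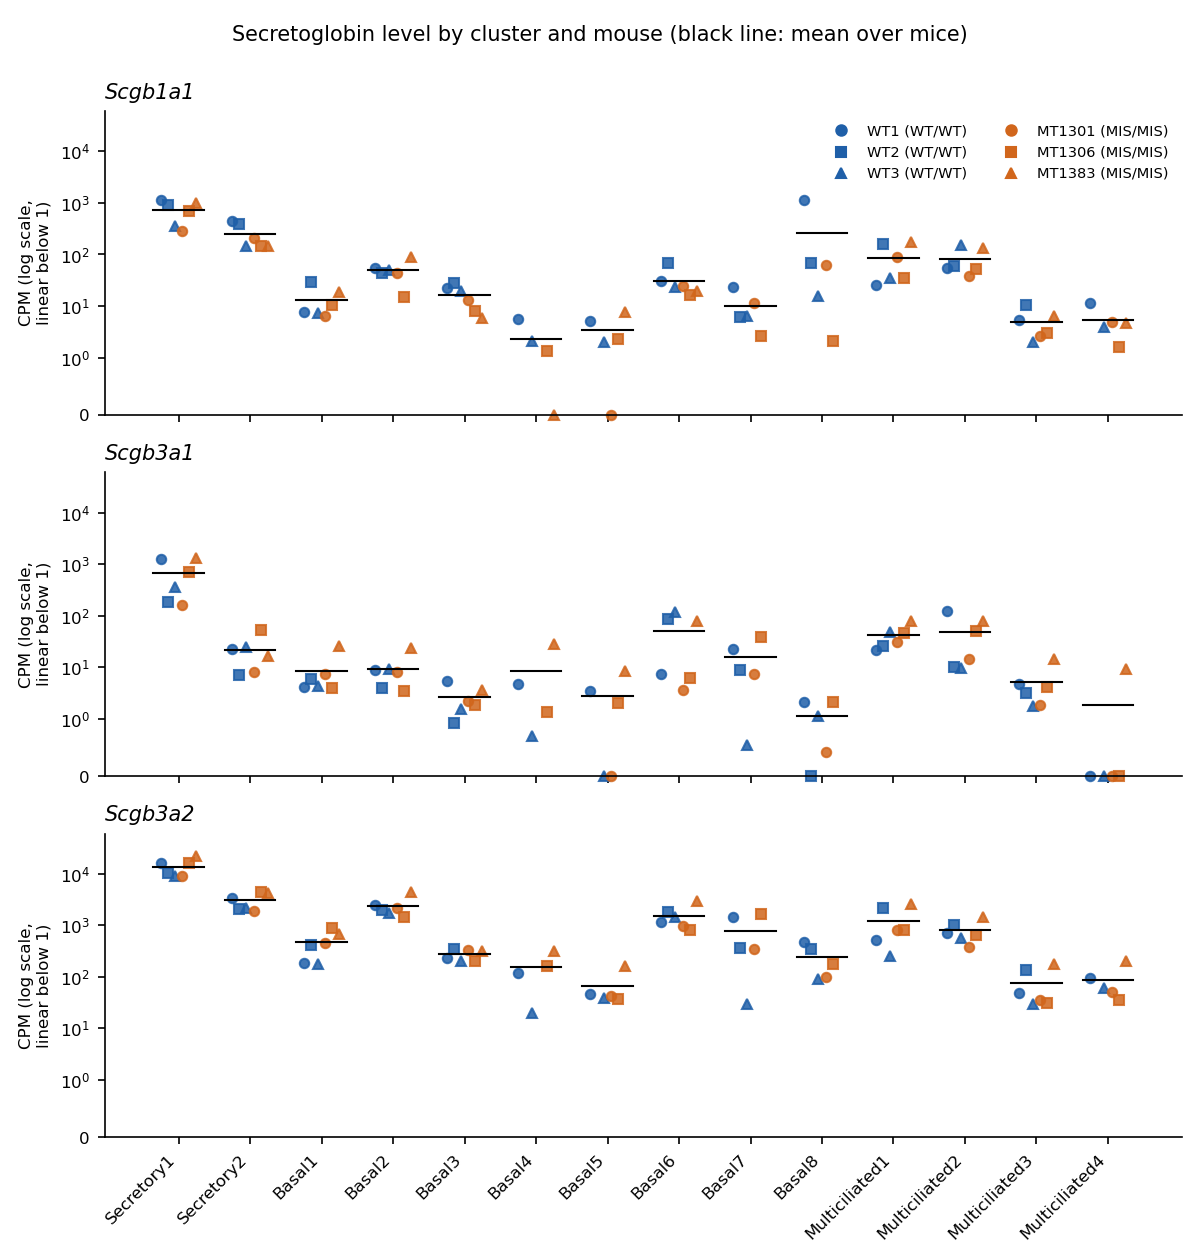
Level of each gene in CPM (vertical axis, log scale that is linear below 1) in each annotated cluster (horizontal axis), with 1 point per mouse with at least 20 cells and a black line at the mean over mice. *Scgb3a2* was at 8834 CPM or more in Secretory1 in every mouse, *Scgb1a1* had 1 *WT/WT* mouse at 1149 CPM in Basal8, and *Scgb3a1* was at 163 to 1314 CPM in Secretory1 and at most 123 CPM in any mouse of the other clusters.

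*Scgb3a2* in Secretory1 was 16005, 10376 and 9066 CPM in WT1, WT2 and WT3, and 8834, 15891 and 22352 CPM in MT1301, MT1306 and MT1383. Both genotypes thus held a low and a high mouse, and their ranges overlapped. In Secretory2 it was 3419.9, 2045 and 2195 CPM in *WT/WT* mice and 1869, 4476 and 4210.1 CPM in *MIS/MIS* mice. The ranges of the 2 secretory clusters did not overlap, Secretory1 was higher in 6 of 6 mice, and the ratio was stable between mice (4.58 ± 0.643, from 3.55 to 5.31).

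Below the secretory clusters, *Scgb3a2* decreased gradually. Basal2 had 2365 CPM as the mean of 6 mice, and its range overlapped that of Secretory2, which was higher in 4 of 6 mice. The Basal2 values were 2439, 1962 and 1715 CPM in *WT/WT* mice and 2146, 1473 and 4456 CPM in *MIS/MIS* mice, the highest being MT1383, which also gave 1295 of the 2269 Basal2 cells. Basal6 (1531 CPM), Multiciliated1 (1184), Multiciliated2 (794) and Basal7 (767) followed, then Basal1 (466), Basal3 (272), Basal8 (239) and Basal4 (154). The lowest were Multiciliated4 (88.2 CPM), Multiciliated3 (75.9), the cluster highest in the dynein gene *Dnah5* (657 CPM), and Basal5 (65.8). Past Secretory1, the ranges of every pair of neighbours in this order overlapped.

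*Scgb1a1* in Secretory1 was 1127, 913 and 363 CPM in *WT/WT* mice and 289.8, 687 and 997 CPM in *MIS/MIS* mice. In Secretory2 it was 452, 383 and 148 CPM in *WT/WT* mice and 208, 147 and 145 CPM in *MIS/MIS* mice. Secretory1 was higher than Secretory2 in every mouse, by 1.39 to 6.88 times. Basal8 ranked between the 2 secretory clusters with a mean of 259.6 CPM, but this rested on WT1: it had 1149 CPM, the other mice with enough cells had 2.08 to 67.8, and the mean without WT1 was 37.3. In WT1 a single cell held 59.0% of the Basal8 UMIs of *Scgb1a1* and 5 cells held 90.5%. The remaining clusters lay at 86.4 CPM in Multiciliated1, 82.2 in Multiciliated2, 49.2 in Basal2, 30.5 in Basal6 and at or below 16.1 in the others, with overlapping ranges of all neighbours.

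*Scgb3a1* varied most between mice in both secretory clusters, but least of the 3 genes in all multiciliated cells (4.43-fold) and all basal cells (5.71-fold). In Secretory1 it was 1237, 187 and 360.0 CPM in *WT/WT* mice and 163, 709 and 1314 CPM in *MIS/MIS* mice, an 8.07-fold range against 3.89-fold for *Scgb1a1* and 2.53-fold for *Scgb3a2*. The highest pair of mice, MT1383 and WT1, had one mouse of each genotype, as did the lowest pair, MT1301 and WT2. In Secretory2 it was 22.4, 7.19 and 24.8 CPM in *WT/WT* mice and 8.25, 52.2 and 16.6 CPM in *MIS/MIS* mice. Secretory1 was 13.6 to 79.2 times higher than Secretory2, so *Scgb3a1* separated the 2 secretory clusters more than the other 2 genes did in every mouse. After Secretory1 came Basal6, the cluster highest in the proliferation gene *Mki67* (50.1 CPM, a 13.2-fold drop without overlap of the ranges), Multiciliated2 (47.8), Multiciliated1 (41.9), Secretory2 (21.9) and Basal7 (15.6), and all further clusters were below 10 CPM. The Basal6 level rested on few cells: 89.2% ± 5.25 of them had no UMI of *Scgb3a1*, 1 cell held 27.6% to 72.3% of its UMIs over the 6 mice and 5 cells held 70.7% to 99.4%.

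The labels of the secretory clusters were compared with their marker genes. Of 20 genes listed for secretory cells, 11 were highest in Secretory1 and none in Secretory2, among them *Reg3g* (38266 CPM), *Bpifa1* (15035), *Ltf*, which encodes lactoferrin (3082), and *Sftpd*, which encodes a surfactant collectin (1278). The remaining 9 were highest in other clusters. *Lypd2*, *Cyp2a5*, *Cbr2*, *Muc16* and *Agr2* were highest in Multiciliated1, *Aldh1a1* and *Tff2* in Multiciliated3, *Hp* in Basal7 and *Cyp2f2*, the club cell cytochrome P450, in Basal8. *Agr2*, which encodes a protein disulfide isomerase of mucus cells, was 1034 CPM in Multiciliated1 and 315 in Secretory1, and *Cyp2a5* was 1959 and 645. *Cyp2f2* was 9786 CPM in Basal8, 9394 in Secretory1 and 8356 in Secretory2. Summed basal markers, 7 genes, were 1712 CPM in Secretory1 (1114 to 2661) and 3406 CPM in Secretory2 (2748 to 4595), mainly from the keratin gene *Krt15* (1584 and 3076 CPM). The defining basal keratin *Krt5* was 5.93 CPM in Secretory1 and 92.8 CPM in Secretory2. Summed markers of multiciliated cells, 7 genes, were 30.1 and 31.1 CPM. Of the 7 listed regulators of secretory promoters, none was highest in Secretory1: *Nkx2-1* was 69.0 CPM there and 82.0 in Secretory2, *Foxa1* was 123 in both, and *Cebpb* was 359 and 313.

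Within Secretory1 the cells were not alike in their secretoglobins. *Scgb3a2* was broad: 1.22% of cells had no UMI of it, the median cell had 9501 CPM and 46.2% ± 15.1 of cells (31.0% to 70.8% over mice) spent over 1% of their UMIs on it. *Scgb1a1* and *Scgb3a1* had long tails. No UMI was found in 29.2% of cells for *Scgb1a1* and in 36.8% for *Scgb3a1*, and the median cell had 93.3 and 77.6 CPM. At the 99th percentile the levels were 10032 and 9348 CPM, respectively. The 10% of cells with the highest level held 75.6% ± 6.73 of the *Scgb1a1* UMIs and 76.4% ± 7.37 of those of *Scgb3a1*, against 35.6% ± 4.10 for *Scgb3a2*.

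The means of the 2 less abundant genes therefore rested on few cells in some mice. In MT1306 a single cell held 31.1% of the Secretory1 UMIs of *Scgb1a1*, and a single cell held 21.6% of those of *Scgb3a1*. In the other mice the top cell held 4.36% to 7.31% and 2.83% to 10.8%. The highest cell of all had 5713 UMIs of *Scgb3a2*, or 12.4% of its transcripts, and the highest for *Scgb1a1* and *Scgb3a1* had 3588 UMIs (8.17%) and 2571 UMIs (7.11%).

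**Figure D2:**
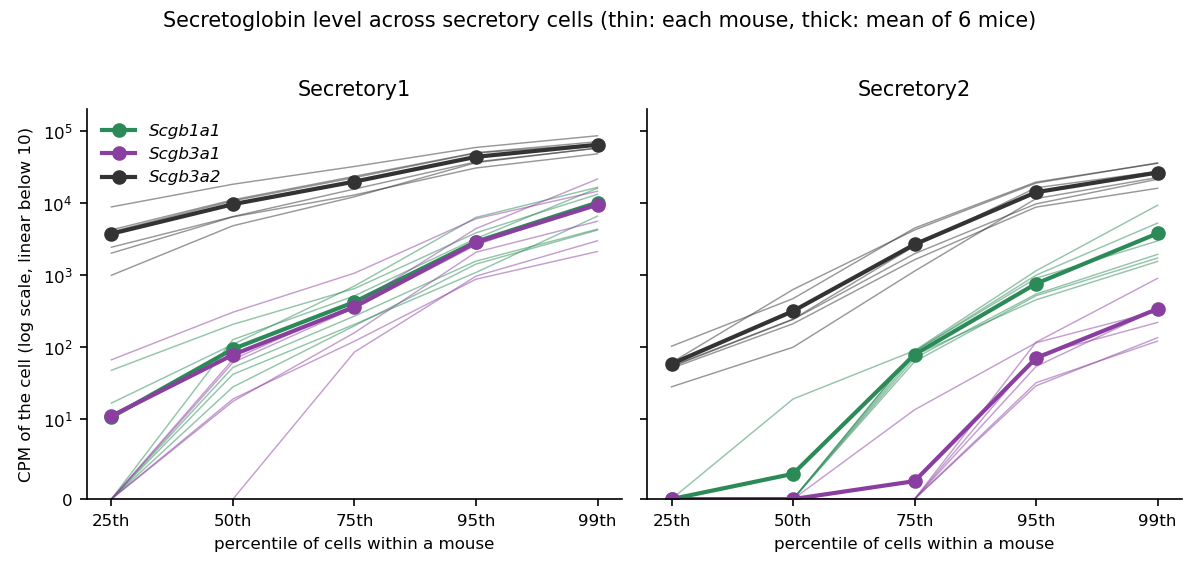
CPM per cell (vertical axis, log scale that is linear below 10) against the percentile of cells within a mouse (horizontal axis) in Secretory1 and Secretory2, with thin lines for mice and thick lines for the mean of 6 mice. In Secretory1 the *Scgb3a2* line is at 9501 CPM at the median, while the lines of *Scgb1a1* and *Scgb3a1* are at 93.3 and 77.6 CPM and climb to about the level of the *Scgb3a2* median only in the last percentiles.

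Secretory2 cells had the same order of the genes with longer tails. No UMI was found in 11.7% of cells for *Scgb3a2*, 54.7% for *Scgb1a1* and 83.0% for *Scgb3a1*. The median cell had 313 CPM of *Scgb3a2*, the top 10% of cells held 63.7% ± 5.86 of its UMIs, and 8.52% of cells spent over 1% of their UMIs on it. Basal2 had a like shape for *Scgb3a2*, with a median of 277 CPM, 66.1% ± 7.92 of the UMIs in the top 10% and 5.88% of cells over 1%. Thus the *Scgb3a2* level of Basal2 came from a minority of strongly positive cells in most mice. MT1383 differed, with a median of 1060.4 CPM against 83.4 to 167 in the other mice.

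In nearly all Secretory1 cells *Scgb3a2* was the leading secretoglobin. It had the most UMIs of the 3 in 94.9% ± 2.10 of cells, *Scgb1a1* in 3.14% ± 1.18 and *Scgb3a1* in 0.736% ± 0.224. All 3 were detected in 47.8% ± 14.7 of cells, from 33.8% to 71.2% over mice. *Scgb1a1* without *Scgb3a1* was found in 22.9% and the reverse in 15.3%. Either of them without *Scgb3a2* was found in 0.577%, a share that cannot exceed the 1.22% of cells with no UMI of *Scgb3a2*. That share therefore says nothing about co-expression. All these shares use every UMI of a cell, so they depend on its depth. In Secretory2, *Scgb3a2* led in 78.6% of cells and *Scgb1a1* in 10.6%, all 3 were detected in 11.1%, and none in 7.64%.

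Co-expression was measured by Spearman's rho over the cells of a mouse after each cell had been thinned to 5000 UMIs. The cells of a mouse share a library and the counts of 2 genes share a cell's total, so rho is a description with no p. In Secretory1 the pair *Scgb3a1* and *Scgb3a2* had the highest rho, 0.42 ± 0.067 (SD, n = 6 mice), with 0.54, 0.35 and 0.39 in *WT/WT* mice and 0.37, 0.41 and 0.44 in *MIS/MIS* mice. *Scgb1a1* and *Scgb3a2* had 0.24 ± 0.046, from 0.18 to 0.30. *Scgb1a1* and *Scgb3a1* had 0.15 ± 0.069, from 0.04 to 0.22. The pair of *Scgb3a1* and *Scgb3a2* was above the other pairs in each of the 6 mice. Without thinning the means were 0.52, 0.31 and 0.22, in the same order. In Secretory2, where counts are sparser, the means were 0.16 ± 0.088, 0.22 ± 0.081 and 0.06 ± 0.065.

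The Secretory1 cells of each mouse were also ranked by *Scgb3a2* and split into 4 bins of equal size, from bin 1 (lowest) to bin 4. Over the bins *Scgb3a2* itself, which set the ranking, went from 1593 to 6479, 13984 and 34010.0 CPM. *Scgb3a1* went from 100.2 to 245, 565 and 1788 CPM and was higher at every step in every mouse. *Scgb1a1* went from 224 to 564, 669.8 and 1495 CPM, but in WT1 it was lower in bin 3 than in bin 2 and in MT1301 lower in bin 2 than in bin 1. Bin 4 over bin 1 was 28.2-fold ± 30.1 for *Scgb3a1* (9.51 to 87.0) and 7.46-fold ± 5.27 for *Scgb1a1* (2.76 to 17.5). Depth was nearly even, with 38134, 40448, 38336 and 36747 UMIs in the median cell of the 4 bins, and the mitochondrial share was 11.4%, 11.4%, 10.7% and 10.6%.

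**Figure D3:**
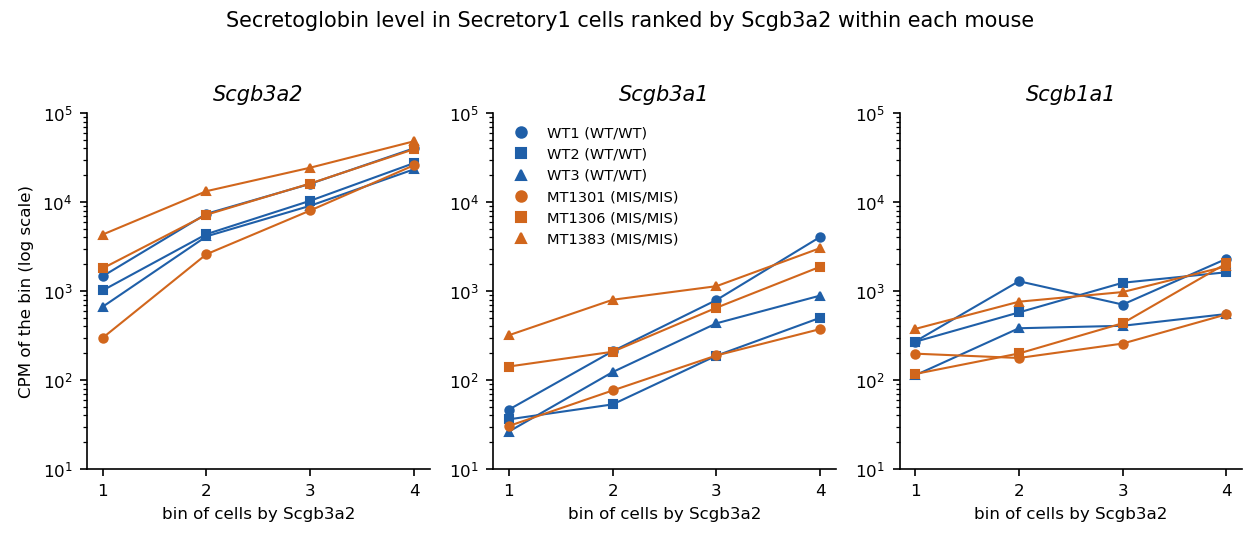
CPM of each gene (vertical axis, log scale) in the 4 bins of Secretory1 cells ranked by *Scgb3a2* within each mouse (horizontal axis, 1 is lowest), with 1 line per mouse. *Scgb3a2* rises by the ranking itself, *Scgb3a1* rises at every step in all 6 mice, and *Scgb1a1* is higher in bin 4 than in bin 1 in all 6 mice with steps down in WT1 and MT1301.

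Genes with the most similar pattern were found by 2 measures. Over 14 clusters and 10799 genes, Pearson's r of mean log2(CPM + 1) described likeness, with points that share libraries and clusters that share lineage. *Scgb3a2* was most like *Gm41715* (r = 0.979), a long noncoding RNA gene 77.2 kb beyond its 3′ end on the same chromosome, then *Pon1* (0.944), which encodes paraoxonase, *Rbp4* (0.922), a retinol carrier, *5330417C22Rik* (0.919) and *Sftpa1* (0.913), a surfactant protein. *Scgb1a1* was most like *Me1* (0.939), malic enzyme, *Pon1* (0.931), *Slc4a5* (0.924), *5330417C22Rik* (0.913) and *Scgb3a2* (0.898). *Scgb3a1* was most like *Trf* (0.914), transferrin, *Pon1* (0.896), *Sult1c2* (0.885), *Bpifb1* (0.881) and *Gp2* (0.871). *Pon1* was the gene common to the 3 sets. Among the 3 secretoglobins, r was 0.898 for *Scgb1a1* and *Scgb3a2*, 0.852 for *Scgb3a1* and *Scgb3a2*, and 0.770 for *Scgb1a1* and *Scgb3a1*, so this order differed from that over Secretory1 cells.

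Over thinned Secretory1 cells and 5219 genes, likeness was the mean rho of the 6 mice. *Scgb3a2* had its highest values with *Bpifa1* (0.53), *Pon1* (0.45), *Scgb3a1* (0.42), *Hp* (0.36), which encodes haptoglobin, and *Trf* (0.31). *Scgb3a1* had them with *Scgb3a2* (0.42), *Bpifa1* (0.38), *Reg3g* (0.33), *Pon1* (0.33) and *Trf* (0.32). *Scgb1a1* had lower values throughout, with *Cxcl17* (0.31), a mucosal chemokine, *Scgb3a2* (0.24), *Reg3g* (0.23), *Pon1* (0.22) and *Pglyrp1* (0.21), a peptidoglycan recognition protein. The lowest value of each gene was -0.24 for *Scgb3a2* with *Anxa1*, -0.22 for *Scgb3a1* with *Krt15* and -0.12 for *Scgb1a1* with *Tpt1*. *Bpifa1* and *Reg3g*, whose promoters are printed with that of *Scgb3a1*, thus ranked with it across cells.

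Low levels outside secretory cells need a reference, since transcripts free in the droplet suspension give UMIs in cells that do not express a gene. Multiciliated3 cells (median 26359.5 UMIs) had 2.17% ± 0.341 of the whole-culture CPM of the same mouse for *Scgb1a1*, 3.46% ± 1.17 for *Scgb3a1* and 1.82% ± 0.989 for *Scgb3a2*. *Bpifa1* was at 1.97% there, whereas *Cyp2f2* was at 53.5%. In Basal5 the 3 genes were at 1.58%, 1.14% and 1.61%, with *Bpifa1* at 10.7%. No empty droplets were analysed here, so the share of free transcripts in these values was not tested. In both clusters the 3 genes were thus between 1.14% and 3.46% of the culture.

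The share of cells with a UMI varied with depth and minimum count for *Scgb3a2*. Unthinned, 66.9% of Multiciliated3 cells and 60.7% of Basal5 cells had at least 1 UMI of it, against 94.7% of secretory cells (median depth 33387 UMIs in Secretory1 and 31434.5 in Secretory2, and 22738.5 in Basal5). Of 28 ionocytes, cells that carry the chloride channel Cftr, 18 had at least 1 UMI (64.3%, exact binomial 95% interval 44.1% to 81.4%, for counting error only). These ionocytes are pooled over mice, and 19 came from MT1383, the mouse highest in *Scgb3a2* over all cells (6612 CPM). Thinned to 5000 UMIs, 8 of the 28 had a UMI (28.6%). Thinned to 5000 UMIs, the shares were 22.5% ± 9.09 in Multiciliated3, 19.7% ± 4.38 in Basal5, 33.9% ± 11.5 in all basal cells, 28.5% ± 10.4 in all multiciliated cells and 82.4% ± 6.97 in secretory cells. With at least 5 UMIs in a thinned cell the shares were 0.534%, 0.219%, 11.9%, 6.96% and 68.5%. Multiciliated3 and Basal5 were apart from secretory cells at 1 UMI already. In thinned cells the highest mouse had 36.2% in Multiciliated3 and 26.9% in Basal5, and the lowest had 77.2% in secretory cells. At 5 UMIs Basal2, at 32.6%, lay between them and the pooled secretory cells. At 1 UMI Basal2 was at 58.7%, and the genotype means of Secretory2 alone were 58.6% (*WT/WT*) and 67.3% (*MIS/MIS*).

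*Scgb1a1* and *Scgb3a1* were found in 2.06% ± 1.04 and 1.68% ± 1.18 of thinned Multiciliated3 cells, against 36.9% ± 10.4 and 26.9% ± 16.3 of secretory cells. The secretory shares pool Secretory1 and Secretory2, which were unlike. For *Scgb3a1* the genotype means of Secretory2 alone were 4.95% (*WT/WT*) and 5.54% (*MIS/MIS*). For *Scgb1a1* they were 23.3% (*WT/WT*) and 22.0% (*MIS/MIS*). In basal cells the shares were 4.84% ± 1.83 and 2.15% ± 1.63. Those of *Scgb3a1* in basal cells and in Multiciliated3 were within 1 SD of each other, and its levels were 10.9 and 5.06 CPM. *Scgb1a1* reached 15.8% ± 5.89 in Multiciliated1 and 10.8% ± 4.09 in Basal2, and *Scgb3a1* reached 8.38% (4.84% to 16.1% over mice) in Multiciliated1. For *Scgb3a1*, Multiciliated1 was thus not below Secretory2 in these means.

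The ratio of the genes also differed between clusters. *Scgb3a2* per *Scgb1a1* was 19.5 ± 6.53 in all cells, 21.1 ± 7.09 in Secretory1 and 14.8 ± 6.41 in Multiciliated3. It was 53.3 ± 21.7 in Basal2. *Scgb3a2* per *Scgb3a1* was 35.5 ± 20.2 in all cells, 31.2 ± 18.8 in Secretory1 and 18.2 ± 13.1 in Multiciliated3, but 182 ± 85.5 in Secretory2 and 308 ± 125 in Basal2. Within mice, *Scgb3a2* per *Scgb3a1* was lower in Multiciliated3 than in all cells in 6 of 6 mice. In proportion the gap was smallest in WT2 (43.4 against 60.8) and largest in MT1306 (7.57 against 28.3). In Basal2 both ratios were higher than in all cells of the same mouse in 6 of 6 mice. The ratios in Multiciliated3 and Basal2 rested on low counts or few cells. In Multiciliated3, *Scgb3a1* was at 1.75 to 14.6 CPM over mice, and 1 cell held 6.67% to 37.5% of its UMIs. In Basal2, 1 cell of MT1301 held 74.7% of the *Scgb1a1* UMIs, and 1 cell held 38.7% of those of *Scgb3a1*. The part of free transcripts in these ratios was not tested.

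The genotypes were compared over mice, on UMIs summed per mouse, with limma's voom test and Benjamini-Hochberg adjustment over all genes tested. In secretory cells, 0 of the 3 genes passed an adjusted p under 0.05, where 0.00735% of 13610 genes did. None of the 3 separated the genotypes without overlap, where 6.03% of all genes did. No member passed an unadjusted p under 0.05 in any group of cells. Of all genes, 258 of 13610 did in secretory cells, 304 of 13174 in Secretory1 and 364 of 12369 in Secretory2. In multiciliated cells 614 of 14206 did, and in basal cells 334 of 14615. With so few genes passing, 0 of 3 members says little. The limma-trend test, chosen after the data were seen, called no member either.

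*Scgb3a2* in secretory cells was 10635, 6926 and 6893 CPM in *WT/WT* mice and 6103, 10064 and 20563 CPM in *MIS/MIS* mice. The lowest and the highest mouse were both *MIS/MIS*. Its log2 difference, *MIS/MIS* minus *WT/WT*, was 0.44 (standard error 0.42, 95% interval -0.54 to 1.42, limma voom adjusted p = 1.000), and it was -0.04 without MT1383. *Scgb3a1* was 719, 113 and 254 CPM in *WT/WT* mice and 102, 374 and 1186 CPM in *MIS/MIS* mice. Its log2 difference was 0.37 (standard error 0.95, interval -1.87 to 2.60, limma adjusted p = 1.000) and -0.53 without MT1383. *Scgb1a1* was 839, 694 and 295 CPM in *WT/WT* mice and 258, 411 and 913 CPM in *MIS/MIS* mice, with a log2 difference of -0.26 (standard error 0.53, interval -1.51 to 0.99, limma adjusted p = 1.000). It was -0.77 without MT1383, 0.02 without WT1 and 0.15 without MT1301. *Scgb3a1* was also below 0 without WT2 (-0.24). The direction of each of the 3 differences thus rested on single mice, and each interval included a 2-fold change in at least 1 direction. These levels pool Secretory1 and Secretory2, whose mix differed between mice. MT1383 had 1413 and 179 cells of them, and MT1306 had 374 and 419. With an equal mix in every mouse the log2 differences were -0.59 for *Scgb1a1*, 0.27 for *Scgb3a1* and 0.36 for *Scgb3a2*. The part of the mix in the pooled levels was not tested.

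**Figure D4:**
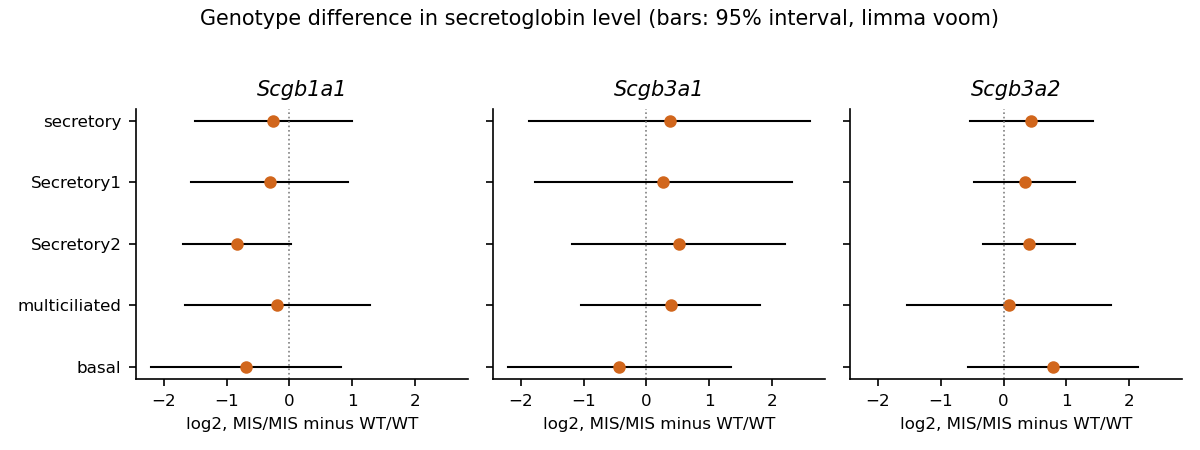
Log2 difference of each gene, *MIS/MIS* minus *WT/WT* (horizontal axis), in 5 groups of cells (vertical axis), with points for limma voom estimates and bars for 95% intervals, 3 mice per genotype. Every interval crosses 0, and the *Scgb1a1* interval in Secretory2, from -1.69 to 0.03, comes nearest to leaving it.

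Within the clusters the picture was similar. In Secretory1 (0 of 3 called, 0.00759% of 13174 genes called, 6.41% without overlap) the log2 differences were -0.31 for *Scgb1a1* (interval -1.57 to 0.94), 0.26 for *Scgb3a1* (-1.78 to 2.31) and 0.34 for *Scgb3a2* (-0.47 to 1.14). The value of *Scgb1a1* was 0.18 without MT1301, and that of *Scgb3a1* was -0.33 without WT2 and -0.39 without MT1383. The value of *Scgb3a2* was 0.03 without MT1383, 0.16 without WT3, 0.56 without WT1 and 0.70 without MT1301. In Secretory2 (0 of 3 called, 0.00808% of 12369 genes called, 8.23% without overlap) *Scgb1a1* had the value nearest to the threshold, -0.83 (standard error 0.37, interval -1.69 to 0.03, limma unadjusted p = 0.0562, adjusted p = 1.000). It was -1.33 without WT3 (limma adjusted p = 0.364, the lowest over the alternatives of the log2 differences) and -0.55 without WT1. There WT1 and WT2 were high and WT3 lay among the *MIS/MIS* mice. *Scgb3a1* was 0.52 (-0.28 without WT2 and -0.51 without MT1306) and *Scgb3a2* 0.40 (0.17 without MT1306, 0.23 without MT1383 and 0.79 without MT1301) in the same cluster.

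In multiciliated cells (0 of 3 called, 0.00704% of 14206 genes, 9.62% without overlap) the log2 differences were -0.19, 0.39 and 0.08 for *Scgb1a1*, *Scgb3a1* and *Scgb3a2*, and each of the 3 changed sign when 1 mouse was left out. In basal cells (0 of 3 called, 0% of 14615 genes, 7.04% without overlap) they were -0.69 (-0.13 without MT1306, -0.30 without WT1, -1.12 without WT3 and -1.21 without MT1383), -0.43 (0.09 without MT1301) and 0.78 (0.15 without MT1383, 0.52 without WT1 and 1.19 without MT1301). Basal MT1383 cells had 2215 CPM of *Scgb3a2* against 333 to 733 CPM in the other mice, and this mouse gave 1295 of 2269 cells of Basal2, the basal cluster highest in the gene. The part of that share in the level was not tested. The genotype difference itself did not differ between cell types at an adjusted p under 0.05: 0 of 3 genes and 0% of 15134 genes passed for secretory against multiciliated cells, and 0 of 3 genes and 0% of 14888 genes for secretory against basal cells. Its values for *Scgb3a2* were 0.30 (interval -0.88 to 1.49, and -0.35 without WT2) and -0.36 (-1.33 to 0.61, and 0.12 without WT1).

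For shares of cells and for rho, exact permutation tests (two-sided, over mice) were run, in which 3 against 3 cannot give a p below 0.1. Of 15 tests of shares in thinned cells, the lowest exact p was 0.30 and every adjusted p was 1.00. In Secretory1, *Scgb3a2* was found in 94.5% of thinned cells of *WT/WT* mice and 94.8% of those of *MIS/MIS* mice, *Scgb1a1* in 46.1% and 41.9%, and *Scgb3a1* in 32.1% and 44.7%, each as the mean of 3 mice. Of 6 tests of rho, the lowest exact p was 0.10, the smallest the design allows, for *Scgb1a1* and *Scgb3a1* in Secretory2 (adjusted p = 0.600). The means there were 0.0185 and 0.101, both near 0.

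The other genes of the secretory list were read beside the 3. In secretory cells 0 of 20 passed in either direction, with 15 positive and 5 negative log2 differences and a median of 0.15, against a median of 0.00 and 48.4% positive over all genes. *Bpifa1* had 0.27 (interval -0.65 to 1.19), *Reg3g* 0.03 (-0.91 to 0.98) and *Cyp2f2* -0.06 (-0.23 to 0.11), so *Cyp2f2* was measured with a far narrower interval than any secretoglobin. In Secretory1 0 of 20 passed (median 0.05, 12 positive), and 1 did not overlap, where 6.41% of all genes did not, the mucin gene *Muc5ac* (0.91, at a level of 0.863 CPM). In Secretory2 0 of 16 tested passed (median 0.02, 9 positive), in multiciliated cells 0 of 17 (median -0.07, 5 positive) and in basal cells 0 of 16 (median 0.01, 9 positive). In multiciliated cells 2 of the 17 did not overlap, where 9.62% of all genes did not. They were the mucin gene *Muc5b* (1.63, interval 0.65 to 2.61, limma unadjusted p = 0.00503, adjusted p = 0.896) and *Tff2* (0.54), a trefoil factor. Both were scarce, at 2.71 and 1.53 CPM in the cluster where each was highest. Of 7 regulators of secretory promoters, all tested in secretory cells, 0 passed (median 0.05), with *Cebpb* at -0.05, *Cebpd* at -0.23 and *Foxa1* at 0.05.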

How the data were processed

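Droplet (10x) libraries of 6 cultures, 3 per genotype, were used. The values that the authors deposited are unscaled UMI counts of each gene in each cell, beside a list that gives the cluster of every cell. The submitters' processing notes name Cell Ranger 7.1.0 and mm10. The study's methods describe removal of cells outside 2500 to 7500 genes or above 25% mitochondrial reads, and clustering in Seurat with manual annotation. The deposited tables separate their fields by a mistyped tab, so they were read with that separator and their unit was recorded as other. For that reason the negative binomial count test of the plan was not run. limma 3.58.1 in R 4.3.3 (voom, with TMM factors and a minimum of 10 counts in 3 mice) was used instead on counts summed per mouse, with Benjamini-Hochberg adjustment over all genes tested and a threshold of 0.05. The test was tried on simulated counts with known changes.

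CPM (counts scaled to a total of 1000000) were computed from the summed UMIs of a mouse and cluster. Means ± SD are over mice with at least 20 cells of the cluster. Where stated, each cell was thinned at random to 5000 UMIs and shallower cells were left out. The cluster names are the authors' own. The MIS/MIS animal numbers match no sample title, so these libraries were used as replicates of their genotype without a number. The 3 genes, the gene lists and the tests were chosen with earlier results of these data known. Genes named as similar are the 5 with the highest Pearson's r over clusters (among genes with at least 10 CPM in some cluster) or the highest mean rho over Secretory1 cells (among genes with a UMI in at least 10% of them). From the lists, genes past the threshold and the 3 of the highest level were to be named with their genotype values; those of *Muc5ac*, *Muc5b*, *Tff2*, *Cebpb*, *Cebpd* and *Foxa1*, and the 4 bins of cells, were added after the values were seen. The alternatives were other scaling factors, filters on low counts, thinning, the stated cell filters, an equal mix of the secretory clusters and each mouse left out. Python 3.11.15 with numpy 2.4.6, pandas 2.3.3, scipy 1.17.1 and matplotlib 3.10.9 served for the other steps.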

Additional observations from a re-analysis of the deposited data

How the results depend on the processing

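No paired analysis was possible because mouse identifiers such as MT1301 appear in no sample title and share no number with *WT/WT* mice. The negative binomial test and the DESeq2 alternative were not run, since the unit of the tables was recorded as other. No alternative brought a secretoglobin past the threshold (lowest adjusted p = 0.364, for *Scgb1a1* in Secretory2 without WT3, over 213 alternatives of 15 log2 differences, of which 195 kept their direction and 18 reversed it). All 315 alternatives of the levels by cluster moved them by less than the SD between mice. Leaving 1 mouse out cannot move a mean by as much as that SD, so those alternatives could not fail. *Scgb1a1* in Basal8 fell from a mean of 259.6 to 37.3 CPM without WT1, where the SD was 498. With 3 mice per genotype and the wide spread of these genes, the fit could miss 2-fold changes. For every change listed here the cause was not tested.

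With upper-quartile factors, and with cells thinned to 5000 UMIs, 0 genes were called in secretory cells and 0 in Secretory1, against 1 each, *Wdfy1* (limma adjusted p = 0.0292 and 0.0461). Without a filter on low counts 2 were called in Secretory2, against 1. *Scgb1a1* in multiciliated cells was at 0.00 after thinning. With each mouse left out in turn, the numbers of genes called ranged from 0 to 0 in secretory cells, 0 to 1 in Secretory1 and 1 to 5 in Secretory2 (5 without WT1). The log2 differences ranged, for *Scgb1a1*, *Scgb3a1* and *Scgb3a2*, from -0.77 to 0.15, -0.53 to 1.24 and -0.04 to 0.85 in secretory cells. In Secretory1 *Scgb1a1* ranged from -0.81 to 0.18, *Scgb3a1* from -0.39 to 1.10, *Scgb3a2* from 0.03 to 0.70, and in Secretory2 *Scgb1a1* ranged from -1.33 to -0.55 and *Scgb3a1* from -0.51 to 1.52. In multiciliated cells the ranges were -0.93 to 0.39, -0.35 to 0.82 and -0.60 to 0.69, and in basal cells they were -1.21 to -0.13, -1.30 to 0.09 and 0.15 to 1.19. For the difference of the genotype effect they were -0.48 to 0.53, 0.00 to 0.63 and -0.35 to 0.74 against multiciliated cells, and -0.03 to 0.81, -0.09 to 2.04 and -0.70 to 0.12 against basal cells.

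The difference in rho between genotypes reversed to 0.00 without thinning for *Scgb1a1* and *Scgb3a1* in Secretory2. For *Scgb1a1* and *Scgb3a2* in Secretory1 it was -0.02 without thinning, -0.02 at 10000 UMIs and -0.01 by Pearson's r. With mice left out it ranged in Secretory1 from -0.01 to 0.08 (*Scgb1a1* and *Scgb3a1*), -0.02 to 0.04 (*Scgb1a1* and *Scgb3a2*) and -0.06 to 0.04 (*Scgb3a1* and *Scgb3a2*).

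Differences in shares of cells, in percentage points, reversed for *Scgb1a1* in secretory cells to -0.537 and -1.46 at minimums of 2 and 5 UMIs and to -0.574 without thinning. They reversed for *Scgb3a1* in Secretory2 to -0.798 and -0.00355 at those minimums, for *Scgb1a1* in multiciliated cells to 0.286 at 5 UMIs, and for *Scgb1a1* in Secretory2 to 0.697 at 10000 UMIs. Without thinning, *Scgb1a1* in basal cells was -1.92 and *Scgb3a2* in multiciliated cells was -5.08. With mice left out, *Scgb1a1* ranged from -13.5 to 0.824 in Secretory1, -1.46 to 1.14 in basal, -3.34 to 0.778 in multiciliated and -8.73 to 5.44 in secretory cells. *Scgb3a1* ranged from -0.799 to 2.38 in Secretory2, -0.538 to 1.55 in basal, -0.952 to 2.54 in multiciliated and -0.880 to 20.2 in secretory cells. *Scgb3a2* ranged from -1.92 to 3.36 in Secretory1, -6.27 to 6.72 in multiciliated and -1.15 to 8.41 in secretory cells.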
